A study of Mus musculus with 14 samples.

Results

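The transcripts described here are those of 48 genes of the cell cycle and of DNA replication, 25 that act in or are made for mitosis and 23 that act in the late G1 phase and the S phase. They were found as the probes of a whole mouse genome array whose gene name equals one of the 48 symbols, out of 41174 probes other than controls that carry 27962 gene names, and each gene was read from its brightest probe. All 48 were well above background on all 14 arrays and none was saturated. A signal is given as log2 of the probe's intensity over the 75th percentile of its own array, so that a value of 0 is as bright as that percentile, and a difference of 1 between groups is a factor of 2. Signals of different probes were not set against each other, except where the linear signals of a marker list were summed.

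The arrays come from p65(-/-) mouse embryonic fibroblasts (MEFs), fibroblasts that lack the NF-κB subunit p65 (RelA), complemented by lentivirus and selected with blasticidin. They received wild type p65 (wt), the plasmid pTV without an insert, or p65 with acetylated lysines changed to arginines, either K314/315R, where both of these residues are changed, or KTR, where K310 is changed in addition. Cells were starved overnight, and all 4 lines were given mouse TNFα at 30 ng/ml and harvested after 3 h, while wild type cells were also measured untreated (0 h). Each group had 3 arrays of RNA isolated on different days, except K314/315R with the 2 analysed here. The pTV cells thus share the deletion, the virus, the selection and the TNFα with the treated lines. Per the study's methods the constructs were carried by pools of selected cells, and pool and construct cannot be told apart.

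Cells commit to division when cyclin D and cyclin E kinases inactivate the retinoblastoma protein and free E2F transcription factors, which switch on the genes of origin licensing, nucleotide supply and replication. Later, a second wave of genes, driven by MuvB complexes with B-Myb and FoxM1, supplies the kinases, motor proteins and kinetochore proteins of mitosis. Fibroblasts leave this cycle when serum is withdrawn, and NF-κB is known to regulate cyclin D1 in some cells. On arrays of a whole culture, fewer cycling cells and less RNA per cycling cell cannot be told apart.

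Promoters of both waves are shown because the mitotic and the S-phase genes differ in them. RefSeq promoter windows of 300 bases on GRCm38.p6, from 250 bases before an annotated start, were at hand for 40 of the 48 genes, 43 windows in all. The lines give 60 bases upstream of the start, 5′ to 3′ on the gene's strand, with capitals for matches to the E2F letters (TTCGCGC, its variant with TTGGCGC, the variant with TTCCCGC and the variant with TTGCCGC, on either strand) in 4 S-phase genes and to the CHR letters (cell cycle genes homology region, TTTGAA or TTCGAA, on either strand) in 4 mitotic genes. In Mcm5 a pair of matches on opposite strands overlap.
Cdc6 (chr11:98907986-98908045, plus strand, E2F): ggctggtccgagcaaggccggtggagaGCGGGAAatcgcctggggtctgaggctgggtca
Rrm2 (chr12:24708004-24708063, plus strand, E2F): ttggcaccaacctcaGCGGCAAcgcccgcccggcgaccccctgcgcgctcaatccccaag
Mcm7 (chr5:138172016-138172075, minus strand, E2F): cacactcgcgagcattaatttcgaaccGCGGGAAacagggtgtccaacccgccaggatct
Mcm5 (chr8:75109333-75109392, plus strand, E2F): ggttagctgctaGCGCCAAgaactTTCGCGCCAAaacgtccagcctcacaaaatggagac
Ccnb2 (chr9:70421689-70421748, minus strand, CHR): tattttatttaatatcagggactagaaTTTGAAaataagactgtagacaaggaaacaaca
Cdc20 (chr4:118437344-118437403, minus strand, CHR): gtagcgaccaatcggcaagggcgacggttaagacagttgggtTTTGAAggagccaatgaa
Top2a (chr11:99024190-99024249, minus strand, CHR): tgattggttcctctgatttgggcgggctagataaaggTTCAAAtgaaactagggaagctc
Mki67 (chr7:135716445-135716504, minus strand, CHR): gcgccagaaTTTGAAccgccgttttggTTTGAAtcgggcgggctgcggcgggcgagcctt
The E2F letters were found in 59.1% of the 22 S-phase windows, in 9.52% of the 21 mitotic windows and in 9.57% of all 32851 promoter windows. The CHR letters were found in 76.2% of the mitotic windows, in 18.2% of the S-phase windows and in 19.2% of all windows. CCAAT, searched on both strands, was held by 85.7% of the mitotic and 63.6% of the S-phase windows against 37.4% of all, and an NF-κB motif by 9.52% and 4.55% against 4.51%. A match is a description of the letters, not a site or a cause.

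Several facts of the series touch every value below. The 75th percentile of signal lay between 967 and 1442 and 49.9 to 57.7% of spots were above background on each array. Both Rela probes were above background on all arrays, those of pTV cells included; which part of the transcript they read is not given, so they do not check the labels. The brighter one differed by 0.35 between wild type and pTV cells at 3 h (adjusted p = 0.213 by limma), and the other, at -2.84, -2.53 and -2.31 in pTV cells and at -2.07, -1.91 and -1.88 in wild type cells, was higher by 0.61 with wild type p65 (adjusted p = 0.0218 by limma). Untreated wild type cells, with the same construct, had -2.61, -2.65 and -2.49 on this dimmer probe, within the pTV range. On it KTR and K314/315R cells differed from pTV cells by 0.42 and 0.78 (adjusted p = 0.0991 and 0.0072 by limma). On the brighter probe they differed by 0.06 and 0.53, which did not pass. The 8 fibroblast markers were above background on all arrays, while Ptprc, Adgre1, Itgam, Epcam, Cdh1 and the 4 endothelial markers were on none. Of the macrophage markers, to which Ptprc, Adgre1 and Itgam belong, Csf1r was above background on 13 arrays and Cd68 on 6. Slides 1 to 3 each held 1 array of wt 3 h, wt 0 h, KTR and pTV with the same replicate number, whereas both K314/315R arrays lay on slide 4, so that slide and line cannot be told apart for K314/315R. Of the 45 members measured on every array, 43 were highest on slide 2 within the wt 3 h group, 40 within KTR, 32 within pTV and 35 within wt 0 h, against 25.1 to 29.6% of all tested probes. K314/315R replicate 1 was above replicate 2 in 46 of 48 members, by a median of 0.53, against 47.8% of all tested probes. These shifts enter the error of each group: the median SD within groups was 0.29 for the mitotic genes and 0.22 for the S-phase genes against 0.19 for all tested probes.

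**Figure D1:**
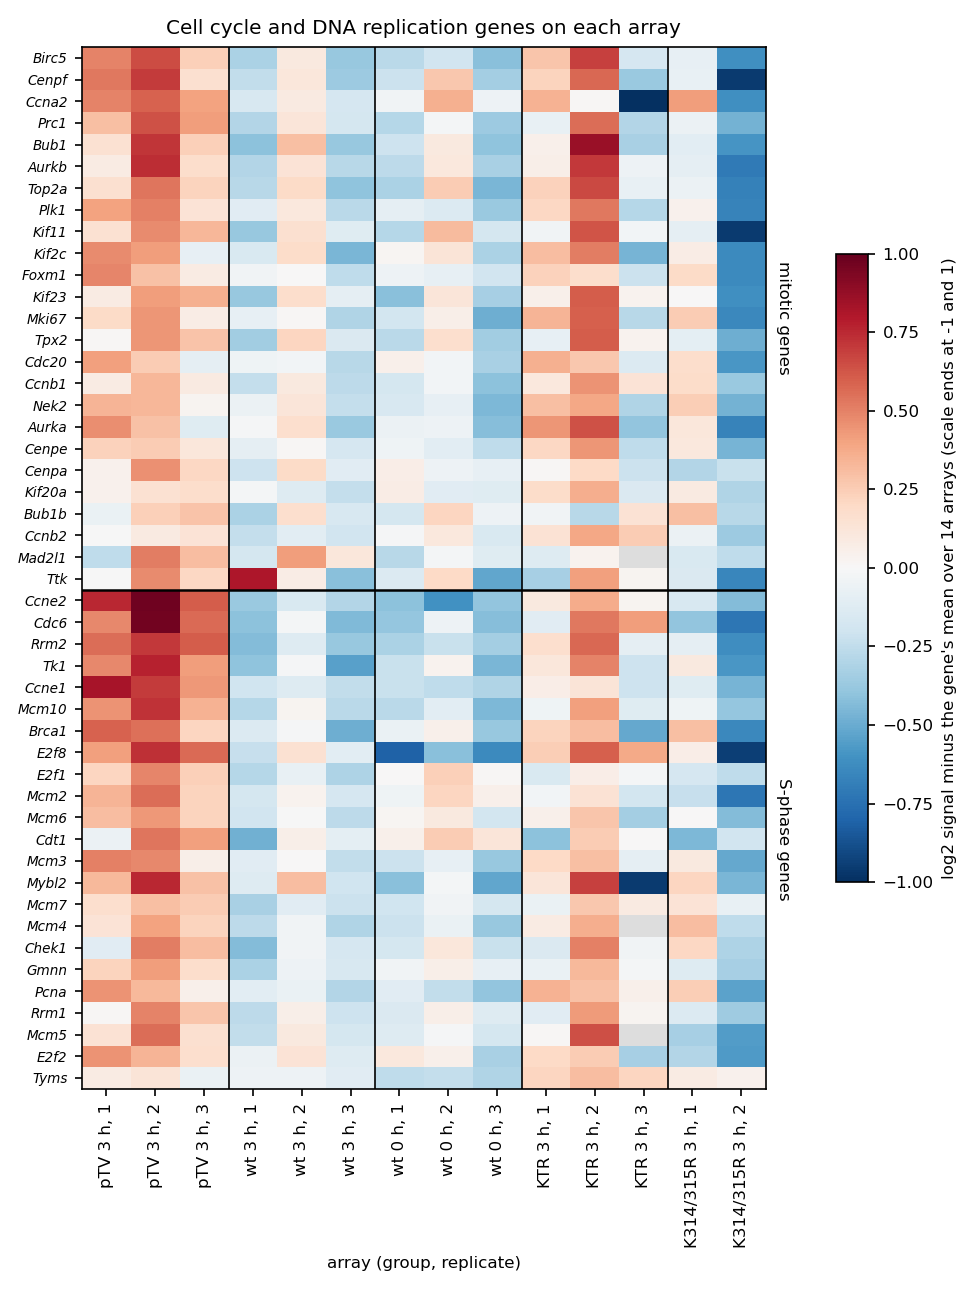
Log2 signal of the 48 genes (rows, mitotic above S-phase, each sorted by the wild type over pTV difference) on the 14 arrays (columns, grouped), minus each gene's mean over the arrays; red is above and blue below that mean, the colours end at -1 and 1, and grey marks spots left out as outliers. The 3 pTV columns are mostly red, the wild type columns mostly blue apart from replicate 2, and K314/315R replicate 2 is the bluest.

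Whether p65 alters these transcripts under TNFα was asked by comparing wild type with pTV cells at 3 h. All 48 genes had a lower mean with wild type p65, against 55.5% of all tested probes, and 10 fell at an adjusted p below 0.05 (limma, Benjamini-Hochberg over all tested probes), against 6.8% of all tested probes. All 10 were S-phase genes: Ccne1, Ccne2, Cdc6, Rrm2, Tk1, Mcm10, E2f1, Mcm2, Mcm7 and Gmnn. None of the 25 mitotic genes passed. An unadjusted p below 0.05 in limma was found for 23 members, 4 of them mitotic, against 13.9% of all tested probes that were lower. Beyond the fold limit of 1.8 lay 4 of the 10, Ccne2, Cdc6, Rrm2 and Tk1, against 2.03% of all tested probes. No member rose, against 8.03% of all tested probes. The median difference was -0.45 over all members, -0.36 over the mitotic and -0.47 over the S-phase genes, and -0.03 over all tested probes.

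The E cyclins, which with Cdk2 drive cells into S phase, both fell. Ccne2 had signals of -1.24, -1.02 and -1.39 in pTV cells and of -2.37, -2.14 and -2.29 in wild type cells. Every wild type array lay below every pTV array, and the fall was -1.05 (SE 0.13, adjusted p = 0.000138 by limma, n = 3 arrays per group), 0.483-fold. Ccne1 had 3.16, 3.03 and 2.77 in pTV cells and 2.14, 2.21 and 2.09 in wild type cells. Again the groups did not overlap, and the fall was -0.84 (SE 0.13, adjusted p = 0.00066 by limma).

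Origin licensing loads the Mcm2 to Mcm7 helicase onto DNA with the loaders Cdc6 and Cdt1, and geminin (Gmnn) blocks a second loading. Cdc6 had signals of -1.05, -0.57 and -0.97 in pTV cells and of -1.94, -1.55 and -1.97 in wild type cells. It fell by 0.96 (SE 0.20, adjusted p = 0.0056 by limma) with no overlap, both groups being highest in replicate 2. Of the helicase subunits, Mcm2 had 2.55, 2.77 and 2.43 in pTV cells and 2.03, 2.24 and 2.04 in wild type cells, a fall of -0.48 with an adjusted p of 0.0474. The Mcm2 call was lost in 11 of 19 alternative settings. Mcm7 fell by 0.46 and Gmnn by 0.45, with adjusted p-values of 0.0119 and 0.0284. Mcm5 had 3.41, 3.82 and 3.43 in pTV cells against 3.02, 3.36 and 3.09 in wild type cells, which did not overlap but did not pass (-0.40, adjusted p = 0.176 by limma). Mcm3, Mcm4 and Mcm6 differed by -0.47, -0.45 and -0.47, by about as much as Mcm7, and did not pass. Mcm10, which helps to open the loaded helicase, had 2.27, 2.54 and 2.17 in pTV cells and 1.53, 1.85 and 1.55 in wild type cells. It fell by 0.68 (SE 0.17, adjusted p = 0.016 by limma) without overlap.

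Among the genes of nucleotide supply, Rrm2, the regulated subunit of ribonucleotide reductase, had 0.74, 0.90 and 0.79 in pTV cells and -0.24, 0.06 and -0.19 in wild type cells. The pTV arrays were tightly grouped and all above the wild type arrays, and the fall was -0.94 (SE 0.17, adjusted p = 0.00244 by limma), 0.522-fold. Thymidine kinase (Tk1) had 2.41, 2.70 and 2.36 against 1.54, 1.93 and 1.39, a fall of -0.87 (SE 0.22, adjusted p = 0.0202 by limma), also without overlap. Thymidylate synthase (Tyms) was the S-phase member with the smallest difference, -0.12, and its arrays overlapped. Pcna, the sliding clamp of the replication fork, had 4.67, 4.54 and 4.26 in pTV cells and 4.11, 4.15 and 3.92 in wild type cells. Its groups did not overlap, and its difference of -0.43 did not pass (adjusted p = 0.154 by limma).

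E2f1, an activator of S-phase genes, had 0.06, 0.33 and 0.08 in pTV cells and -0.45, -0.24 and -0.47 in wild type cells. It fell by 0.54 (SE 0.11, adjusted p = 0.0056 by limma) with no overlap. The other transcription factors had lower means that did not pass: E2f2 -0.33, the repressor E2f8 -0.63, Mybl2 (B-Myb) -0.46 and, among the mitotic genes, Foxm1 -0.38.

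**Figure D2:**
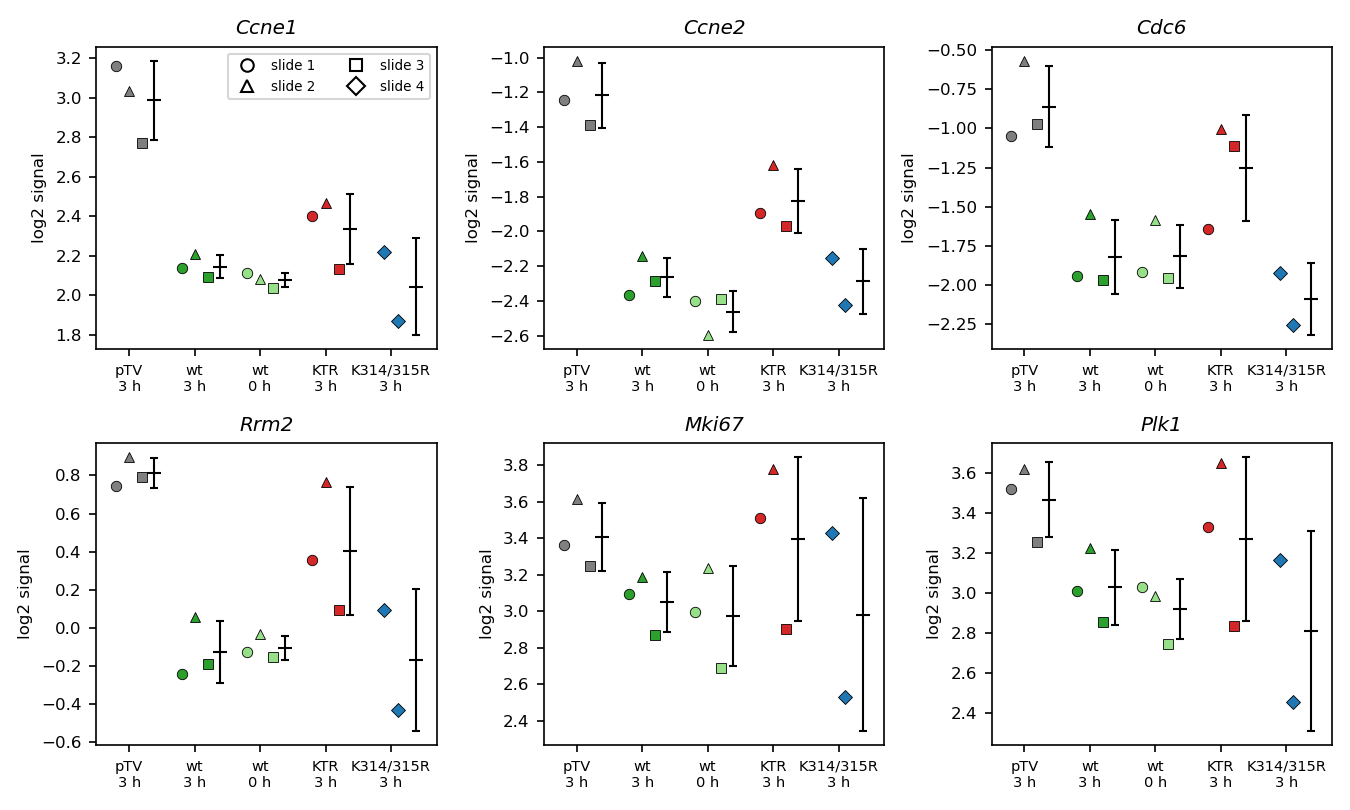
Log2 signal (over the array's 75th percentile) of 4 S-phase genes (Ccne1, Ccne2, Cdc6, Rrm2) and 2 mitotic genes (Mki67, Plk1) on each array, with marker shapes for the slide and bars for mean and SD of each group (n = 3, and 2 for K314/315R). For the S-phase genes the pTV arrays lie above both wild type groups; for Mki67 and Plk1 the groups lie closer, and slide 2 (triangles) is the highest of most groups.

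The mitotic genes had lower means in wild type cells too, with smaller differences and larger errors. Mki67, the proliferation antigen Ki-67, had 3.36, 3.61 and 3.25 in pTV cells and 3.1, 3.19 and 2.87 in wild type cells. These values did not overlap, yet the difference of -0.36 had a 95% interval of -0.91 to 0.20. Plk1, the polo-like kinase of mitotic entry, had 3.52, 3.62 and 3.26 against 3.01, 3.23 and 2.85, a difference of -0.44 (adjusted p = 0.237 by limma). Its lowest pTV array stood just above its highest wild type array. Cyclin B1 (Ccnb1), the partner of Cdk1, had 0.95, 1.19 and 0.96 against 0.63, 0.96 and 0.60, a difference of -0.30 with overlapping arrays. Topoisomerase II (Top2a), which untangles sister chromatids, had 1.03, 1.41 and 1.09 against 0.59, 1.06 and 0.46, a difference of -0.47. Aurkb, the kinase of the chromosomal passenger complex, had -0.21, 0.44 and -0.11 against -0.58, -0.16 and -0.57, a difference of -0.48. In both the wild type array of replicate 2 reached into the pTV range. In a fit of slides 1 to 3 with the replicate number as a block, Mki67, Plk1, Ccnb1, Top2a and Aurkb passed as lower. Their adjusted p-values by limma were 0.0373, 0.0143, 0.0099, 0.0042 and 0.0032, and this fit was chosen after the data were seen. With the block on all arrays none of these genes passed. The mitotic gene with the largest difference was the passenger protein survivin (Birc5), with -0.66 and an adjusted p of 0.063. The spindle checkpoint genes Mad2l1 and Ttk differed least, both by -0.07, and Ttk was uneven within the wild type group, at -1.75 in replicate 1 and -2.98 in replicate 3.

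Every wild type array lay below every pTV array for 28 members, 10 mitotic and 18 S-phase, against 18.2% of all tested probes. Within each of the 3 slides, wild type was below pTV for 46 members, all but Mad2l1 and Ttk, against 35.4% of all tested probes with a value on each slide. With the replicate number as a block, 19 members passed as lower (Birc5, Prc1 and 17 S-phase genes), against 12.2% of all tested probes that did so. In the same fit on the arrays of slides 1 to 3, chosen after the data were seen, 38 passed as lower. These were 17 mitotic and 21 S-phase genes, against 15.4% of all tested probes. Without wild type replicate 1, wild type replicate 3 or pTV replicate 2, the count fell to 5, 6 and 5. With normexp background correction 0 members passed, and a refit without the few spots far below their background, chosen after the data were seen, gave 11.

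Markers of other cells were compared for the same arrays. Krt18, a keratin well above background on 5 of the 14 arrays, had a mean of -2.94 ± 0.20 (SD, n = 3) in pTV cells and of -5.46 ± 1.05 in wild type cells. Of the other epithelial markers, Krt8 was lower in wild type than in pTV cells by -0.41 (adjusted p = 0.0434 by limma), Krt14, above background on 12 arrays, differed by 1.01 in the other direction (adjusted p = 0.284 by limma), and Cdh1 and Epcam were above background on none. Summed linear levels of the 5 epithelial markers were 0.364 to 0.478 in pTV cells and 0.230 to 0.411 in wild type cells, and those of the 8 fibroblast markers 676 to 860 and 685 to 801. Those of the 5 macrophage markers were 0.167 to 0.196 and 0.128 to 0.141, without overlap. The detected macrophage markers had lower means in wild type than in pTV cells. Csf1r had -3.97 ± 0.26 and -3.41 ± 0.23, and Cd68 -4.51 ± 0.35 and -4.08 ± 0.15 (SD, n = 3). A sum of this kind adds signals of different probes and is set mostly by the brightest, so it cannot tell whether the lines are alike. Within the fibroblast list, single markers differed between the lines. The growth factor receptor genes Pdgfra and Pdgfrb rose with wild type p65 by 1.77 and 1.99 (adjusted p = 3.55e-06 and 6.13e-06 by limma), and Thy1 fell by -1.19 (adjusted p = 8.53e-05 by limma). The part of these differences between the lines in the values of the cell cycle genes was not tested.

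The mitotic and the S-phase genes were then set against each other on each array. Each gene's signals were centred on its own mean over the 14 arrays and averaged over the 24 mitotic and the 21 S-phase members with a value on all arrays. In pTV cells the mitotic mean was 0.28 ± 0.14 and the S-phase mean 0.41 ± 0.14 (SD, n = 3), both the highest of the 5 groups. The mitotic minus S-phase difference was -0.12, -0.13 and -0.13 on the pTV arrays, with an SD of 0.0059. In wild type cells at 3 h it was 0.10, 0.11 and -0.005, and at 0 h 0.05, 0.12 and -0.02. The pTV arrays thus lay below all 6 wild type arrays. Wild type minus pTV was 0.19, and 0.136 to 0.226 over 21 other settings. KTR arrays had 0.10, 0.10 and -0.12, and K314/315R arrays 0.08 and -0.12, so that the lowest array of each mutant came close to the pTV values. Leaving out Mki67 and the transcription factors gave -0.13 ± 0.0067 in pTV cells and 0.09 ± 0.068 in wild type cells at 3 h.

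**Figure D3:**
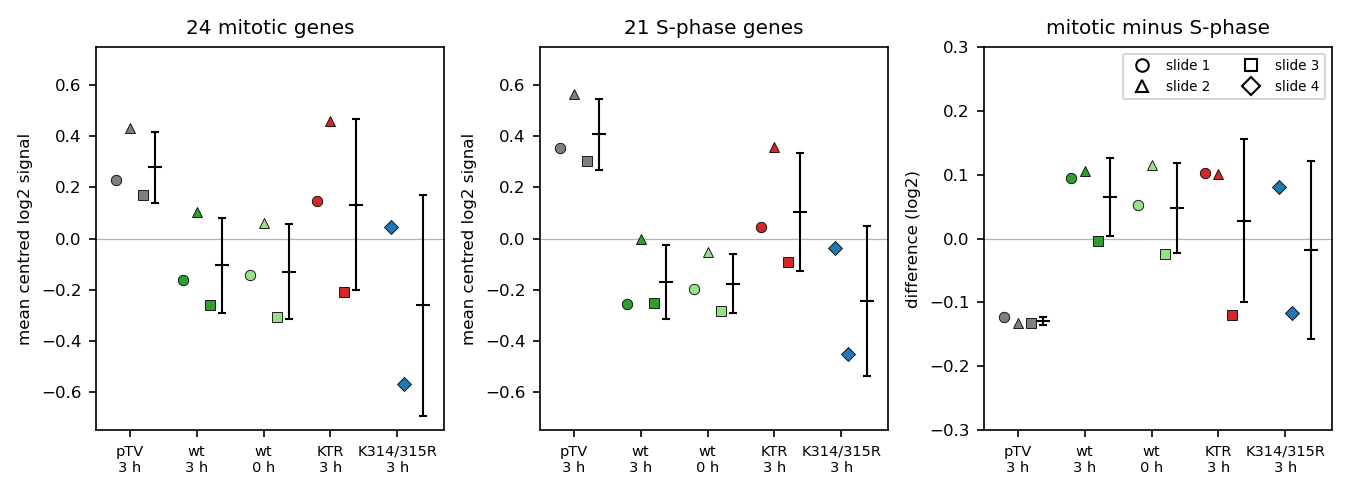
Mean centred log2 signal of 24 mitotic genes (left) and 21 S-phase genes (middle) and their difference (right) on each array, by group, with marker shapes for the slide and bars for mean and SD. The pTV arrays are within 0.011 of each other in the difference, below the wild type arrays, while each mutant has 1 array near them.

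The effect of TNFα itself was read in wild type cells at 3 h against 0 h. No member passed limma's test in either direction, against 2.69% of all tested probes that rose and 1.96% that fell. At an unadjusted p below 0.05 limma called 2 members higher, against 8.12% of all tested probes, and 1 lower, against 8.88%. The median difference was 0.01 for all members, -0.0035 for the S-phase and 0.01 for the mitotic genes. Ccne1, for example, had 2.11, 2.08 and 2.04 at 0 h, overlapping its arrays at 3 h, and differed by 0.07 with a 95% interval of -0.21 to 0.35. Mki67 had 3.00, 3.23 and 2.69 at 0 h and differed by 0.08 (-0.48 to 0.64). The arrays of both times also overlapped for Top2a (0.56, 1.12 and 0.42 at 0 h), Ccnb1 (0.69, 0.84 and 0.46) and Plk1 (3.03, 2.98 and 2.75). The same held for Aurkb (-0.55, -0.19 and -0.61), Mcm2 (2.17, 2.42 and 2.26), Mcm5 (3.13, 3.26 and 3.09) and Pcna (4.11, 3.97 and 3.82).

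The lowest unadjusted p-values with TNFα in limma, 0.0168 and 0.0254, belonged to E2f1 and E2f8, E2F genes of opposite function. E2f8, a repressor of the E2F program, had -3.21, -2.83 and -3.04 at 0 h and -2.63, -2.25 and -2.51 at 3 h. It was higher at 3 h by 0.58, 0.57 and 0.53 within the slides, a mean of 0.56 with an adjusted p of 0.206 by limma. E2f1 had -0.15, 0.08 and -0.15 at 0 h and -0.45, -0.24 and -0.47 at 3 h. It was lower within each slide by a similar amount, a mean of -0.31 with an adjusted p of 0.161 by limma. With the replicate number as a block on slides 1 to 3, both passed, E2f8 as higher (against 7% of all tested probes) and E2f1 as lower (against 7.82%); with the block on all arrays E2f1 alone did (adjusted p = 0.0386 by limma, against 5.28% of all tested probes that were lower). A second, dimmer probe named E2f8 was also tested. With TNFα it was lower at 3 h, by -0.44 (adjusted p = 0.2 by limma), the opposite direction to the first probe, and between wild type and pTV cells it differed by 0.18 against -0.63 for the first, so the direction for the gene depends on the probe.

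Whether the acetylation sites matter was asked by comparing the mutants with wild type p65 at 3 h. For KTR no member passed limma's test, against 0.0586% of all tested probes higher and 0.176% lower. The means of 44 of the 48 were above wild type, against 63.4% of all tested probes, with a median of 0.27 for the members and 0.06 for all tested probes. At an unadjusted p below 0.05 limma called 9 members higher, 2 mitotic and 7 S-phase, against 4.99% of all tested probes. Cdc6 had -1.64, -1.0 and -1.11 in KTR cells, above the matching wild type array in each replicate but overlapping the group, a difference of 0.57 (95% interval 0.14 to 1.0, adjusted p = 0.378 by limma). Rrm2 had 0.35, 0.76 and 0.10, all above the wild type arrays, a difference of 0.53 (0.16 to 0.90). Ccnb2, a B cyclin, had 3.82, 4.07 and 3.93 against 3.44, 3.57 and 3.49, a difference of 0.44 (0.20 to 0.67, adjusted p = 0.169 by limma). These intervals do not reach 0, though none of the 3 passed over all probes. Ccne1 at 2.40, 2.47 and 2.13 overlapped the wild type arrays and differed by 0.19 (-0.09 to 0.47).

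The genes of the mitotic wave varied between the KTR replicates. Mki67 had 3.51, 3.78 and 2.90, Top2a 1.1, 1.53 and 0.80, and Plk1 3.33, 3.65 and 2.84. In each, replicate 3 was the lowest, in or just below the wild type range, while replicates 1 and 2 were within or above the pTV range. Ccnb1 had 0.97, 1.31 and 1.00, Aurkb -0.23, 0.42 and -0.35, and Pcna 4.57, 4.51 and 4.27. Mcm2 had 2.18, 2.35 and 2.02, E2f1 -0.31, -0.09 and -0.18, and Mcm5 3.27 and 3.91, its spot on replicate 3 having been left out as an outlier. Pcna thus lay within the pTV range on every KTR array, and Mcm2 below it. Ccna2, the cyclin of S phase and G2, was at 0.71 in KTR replicate 3 and between 1.78 and 2.98 on the other 13 arrays, and Mybl2 had its lowest value, -1.68, on the same array. That array also had the most outlier spots, 326. With the replicate block on slides 1 to 3, 11 members passed as higher in KTR than in wild type cells, against 1.02% of all tested probes: Ccnb1, Ccnb2, Top2a, Cdc6, Mcm4, Mcm7, Pcna, Rrm2, Tyms, Tk1 and E2f8. With the block on all arrays 1 member, Tyms, did, against 0.483% of all tested probes.

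For K314/315R no member passed on its brightest probe against wild type cells either, against 0.469% of all tested probes higher and 1.75% lower. The median difference was -0.10 for all members, -0.15 for the mitotic and -0.06 for the S-phase genes. Limma's unadjusted p was below 0.05 for 1 member, against 9.72% of all tested probes that were lower. It was Mcm2, whose arrays at 1.98 and 1.48 lay below the wild type arrays, a difference of -0.37 (95% interval -0.73 to -0.02). Ccne1, at 2.22 and 1.87, straddled wild type and differed by -0.10 (-0.41 to 0.21). Mki67, at 3.43 and 2.53, differed by -0.07 (-0.70 to 0.55), an interval that holds both the pTV and the wild type mean. With the replicate block 1 member passed, E2f2, with a difference of -0.41 without the block, against 6.44% of all tested probes that were lower.

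**Figure D4:**
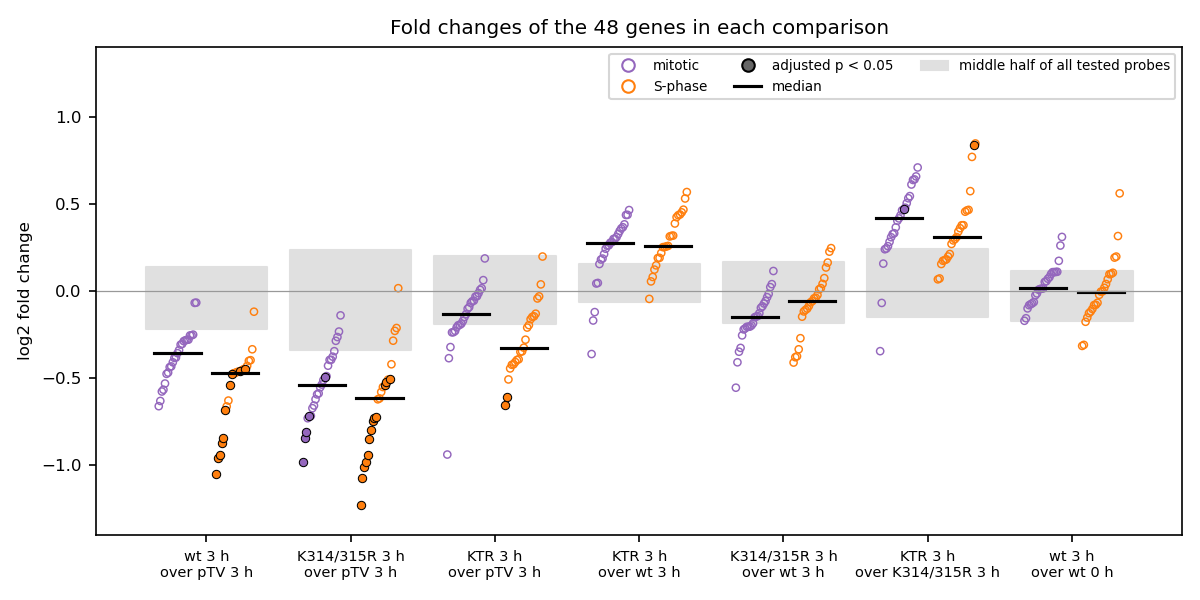
Log2 fold change of each of the 48 genes (points, mitotic purple and S-phase orange, filled where the adjusted p was below 0.05) in the 7 comparisons, with black lines at the list medians and grey boxes from the lower to the upper quartile of all tested probes. In wild type and K314/315R over pTV both lists lie below the grey box's middle, with medians of -0.36 and -0.47, and -0.54 and -0.62, while wild type at 3 h over 0 h has medians near 0.

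The mutants were also compared with pTV cells; these comparisons and that of wild type share the 3 pTV arrays, and their values are given side by side. In KTR cells 2 members fell, against 5.89% of all tested probes, and none rose, against 9.27%. These were Ccne1, by -0.65 (SE 0.13, adjusted p = 0.00428 by limma), and Ccne2, by -0.61 (SE 0.13, adjusted p = 0.00738), at -1.89, -1.62 and -1.97. All KTR arrays of both genes lay below all pTV arrays. The wild type differences for the same genes were -0.84 and -1.05. Cdc6 differed by -0.39 and Rrm2 by -0.41, which did not pass, beside -0.96 and -0.94 with wild type p65. The median over the members was -0.19, -0.13 for mitotic and -0.33 for S-phase genes. With the replicate block 5 members fell, against 10.4% of all tested probes, and 1 rose, against 14.6%, and on slides 1 to 3 13 fell (12 S-phase genes and Prc1, against 12.8% of all tested probes) and 1 rose, Tyms, against 17.1%. Without KTR replicate 2, 5 fell.

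In K314/315R cells 18 members fell, against 13.4% of all tested probes, 13 of them S-phase and 5 mitotic, and none rose, against 12.5%. Beyond 1.8-fold lay 7 of them, against 6.43%. Cdc6 was at -1.93 and -2.26, below the pTV arrays, and fell by 1.23 (SE 0.22, adjusted p = 0.00175 by limma). Ccne2, at -2.15 and -2.42, fell by 1.07 (SE 0.15, adjusted p = 0.000279 by limma). Rrm2, at 0.10 and -0.43, fell by 0.98, Ccne1 by 0.94 and Mcm2 by 0.85. E2f8 was at -2.34 and -3.35, apart by 1.01 between replicates, and fell by 1.01 (adjusted p = 0.0102 by limma). Mcm5, at 2.94 and 2.71, fell by 0.73, and E2f1, at -0.32 and -0.41, by 0.52. The remaining S-phase genes that fell were Mcm10, Tk1, E2f2, Mcm6 and Gmnn.

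The 5 mitotic genes that fell in K314/315R against pTV cells were Cenpf, Kif11, Birc5, Prc1 and Cenpa. Cenpf, a kinetochore protein, was at 1.95, 2.12 and 1.58 in pTV cells and at 1.35 and 0.46 in K314/315R cells, a fall of -0.98 (SE 0.32, adjusted p = 0.0391 by limma). The replicates of K314/315R differed by almost as much as the groups. Kif11, the motor that separates the spindle poles, fell by 0.84, Birc5 by 0.81, Prc1, which bundles the midzone, by 0.72 and the centromeric histone Cenpa by 0.49. Plk1, at 3.16 and 2.45, Top2a, at 0.81 and 0.19, and Aurkb, at -0.38 and -1.0, lay below all pTV arrays without passing, whereas Ccnb1, at 1.05 and 0.49, and Pcna, at 4.46 and 3.68, overlapped them. In all, 31 members had all K314/315R arrays below all pTV arrays, against 25.5% of all tested probes. Without K314/315R replicate 2 the count of members that fell was 5, without its replicate 1 25 and without pTV replicate 2 8; where 1 array of K314/315R was left, it was assumed to vary like the other groups. With the replicate block it was 32, against 20.4% of all tested probes.

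KTR carries the K310 change on top of those of K314/315R. In KTR cells 2 members were higher than in K314/315R cells, against 3.98% of all tested probes, and none was lower, against 1.43%. Those 2 were Cdc6, by 0.84 (SE 0.22, adjusted p = 0.0493 by limma), and Ccnb2, at 3.62 and 3.31 in K314/315R cells, by 0.47 (SE 0.12, adjusted p = 0.0445 by limma). For both, all KTR arrays lay above both K314/315R arrays. The means of 46 members were higher in KTR, against 53.9% of all tested probes, with a median of 0.36. The unadjusted p was below 0.05 for 13 members, all higher, against 13.5% of all tested probes that were higher. E2f8 differed by 0.85 and Mcm5 by 0.77 without passing (adjusted p = 0.0686 and 0.065 by limma). With the replicate block 7 members passed as higher, against 10.3% of all tested probes. When a KTR array was left out, 0 did without KTR replicate 2 or 3, and 3 did without KTR replicate 1.

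Further genes of the cell cycle, in lists apart from the 48, were read in the same fit. Of all tested probes, 6.8% fell and 8.03% rose in wild type against pTV cells. Of 19 further mitotic genes tested 1 fell in wild type against pTV cells, the kinetochore gene Nuf2 (-0.74), with a list median of -0.35. Of 23 further replication genes 2 fell, Orc6 of the origin recognition complex (-0.53) and the polymerase subunit Pold1 (-0.45), with a median of -0.46. Of 25 genes of G1 and of CDK control 5 fell and 3 rose. Those that fell were the D cyclins Ccnd1 (-1.01) and Ccnd2 (-0.62), the repressor E2f7 (-0.79), the phosphatase Cdc25a (-0.75) and Myc (-0.33). Those that rose were the CDK inhibitors Cdkn2c (0.55), Cdkn2b (0.53) and Cdkn1a (0.42). The calls of Myc and Cdkn1a were each lost in 8 of 19 alternative settings. The inhibitor Cdkn1b and Cdk1 did not pass, at 0.36 and -0.40. Of 9 targets of p53 tested, Gadd45a (1.36), Trp53inp1 (0.98) and Sesn1 (0.59) rose and Btg2 (-0.80) fell.

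Ccnd1, which links growth signals to the cell cycle, had a mean of 3.09 ± 0.08 in pTV cells, 2.08 ± 0.21 in wild type cells at 3 h, 1.96 ± 0.16 at 0 h, 2.09 ± 0.23 in KTR cells (SD, n = 3) and 1.8 ± 0.26 in K314/315R cells (n = 2). It fell against pTV by -1.0 in KTR and -1.29 in K314/315R cells (adjusted p = 0.000687 and 0.000212 by limma). The groups other than pTV thus lay within 0.29 of each other, and none of the comparisons run between them passed for Ccnd1. Cdkn1a rose in K314/315R against pTV cells by 0.52 and did not pass in KTR cells, at 0.07. With TNFα in wild type cells Myc rose by 0.66 and Btg2 by 1.2, and Sesn1 fell by 0.50, while Ccnd1 (0.12), Cdkn1a (0.36), Cdkn1b (-0.38) and Cdk1 (0.17) did not pass. In KTR against K314/315R cells Cdkn3 and E2f4 rose by 0.67 and 0.60 and Sesn1 fell by 0.42; Sesn1 also rose in K314/315R against wild type cells, by 0.51.

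For 21 of the members the array held 26 further probes, of which 18, for 16 members, were tested. Of these, 17 had a lower mean in wild type than in pTV cells, against 55.5% of all tested probes, and 4 passed as lower, against 6.8%. The second probes of Cdc6 (-1.13), Ccne2 (-0.93), E2f1 (-0.75) and Mcm3 (-0.60) passed, Mcm3 being a gene whose brightest probe had not. The second probe of Ccne1 differed by -0.72 and did not pass (adjusted p = 0.152 by limma), and that of Top2a by -0.79. The exception was the E2f8 probe named above. In K314/315R against pTV cells, dimmer probes of Cenpe (-1.76), Top2a (-1.74), Brca1 (-1.30) and Kif23 (-0.89) fell, whereas their brightest probes did not pass. The dimmer E2f8 probe did not pass there (-0.17). This Cenpe probe also fell against wild type cells (-1.41, adjusted p = 0.0284 by limma). The same Cenpe and Top2a probes were higher in KTR than in K314/315R cells, by 1.63 and 1.47. Another dimmer Cenpe probe passed in none of these comparisons.

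Set beside the promoters, the share of S-phase genes with the E2F letters depended on the fit that made the calls. Of the 10 S-phase genes that fell in wild type cells, 8 had a window and 3 of these held the letters, Cdc6, Mcm7 and Rrm2, while of the 13 others 12 had a window and 9 held them. With the replicate number as a block, 17 S-phase genes were lower and 9 of the 15 with a window held the letters, against 3 of 5 among the others. Ccne1 had a window without the letters and Ccne2 had no window in the table. The CHR letters were in 15 of the 20 mitotic genes with a window, none of which passed without the block and 1 of which, Prc1, passed with it.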

How the data were processed

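RNA of 14 cultures was read on one-colour Agilent whole mouse genome arrays, 1 per culture. The authors deposited the Agilent Feature Extraction 9.1 output, whose processed intensity is corrected for background and spatial trend within the array, and normalized intensities in a table, in which the probe mean is multiplied by an array's factor (0.837 to 1.20). Their methods name Rosetta Resolver, which was not rerun. Outlier spots (1 to 326 per array) were dropped, spots of a probe averaged, and log2 values were taken relative to the array's 75th percentile. KTR replicate 3 thus lacks Mad2l1, Mcm4 and Mcm5. A probe entered the tests if some group had it well above background on all its arrays (22179 probes), and these went into a single limma fit of all arrays with group as the only term (R 4.3.3, limma 3.58.1), with Benjamini-Hochberg adjustment over these probes and calls at an adjusted p below 0.05; 7 probes gave no estimate in some comparison. The number of arrays limits the precision.

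The members, the further gene lists and the tests were chosen with earlier results of these data known. Array values are given for 10 fixed members and for the 6 called members of largest fold per comparison, and 4 further genes per comparison are named likewise, besides Ccnd1, Cdkn1a, Cdkn1b, Myc and Cdk1. Genes named outside this rule were picked after their values were seen. Cdk1 is named Cdc2a in the files, and Spc25, Ncapd2, Ncapg and Gins2 were not found under these names. The fit was tested on simulated data.

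Replicate numbers coincide with slides 1 to 3. Deviations from group means correlated at 0.308 to 0.613 in the 18 same-numbered pairs on these slides and at -0.510 to 0.0954 in the 36 others, so the numbers pair these arrays. For pairs with a K314/315R array the ranges were -0.101 to 0.411 and -0.416 to 0.416. Alternatives were another background correction, scaling, filter, probe rule, block or set of groups, and leaving out each array.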

Additional observations from a re-analysis of the deposited data

Results flagged for a closer look

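For 5 genes the differences of the mutants from pTV cells differed from each other or from that of wild type p65 in limma's fit of all arrays, a test that does not involve the shared pTV arrays in its value. Of all tested probes, 3.98% were higher and 1.43% lower in KTR than in K314/315R cells. The 2 of 48 members called higher are close to the former share. In K314/315R over wild type cells 0.469% of all tested probes were higher. For Cdc6 the difference from pTV was -0.39 in KTR and -1.23 in K314/315R cells. It was thus less negative in KTR cells, by 0.84 (adjusted p = 0.0493 by limma), with every KTR array above both K314/315R arrays. For Ccnb2 the difference from pTV was 0.19 in KTR and -0.29 in K314/315R cells, higher in KTR by 0.47 (adjusted p = 0.0445 by limma). Of genes outside the 48, Cdkn3, a phosphatase that acts on CDKs, differed by 0.67 (adjusted p = 0.0418), with means of 2.01 ± 0.16 in KTR (SD, n = 3) and 1.34 ± 0.44 in K314/315R cells (n = 2). E2f4, a repressor of E2F targets in resting cells, differed by 0.60 (adjusted p = 0.0288), with 0.95 ± 0.07 and 0.35 ± 0.20. Sesn1, a target of p53, differed by -0.42 (adjusted p = 0.0395), with 2.55 ± 0.09 and 2.97 ± 0.02. Sesn1 also differed between K314/315R and wild type cells by 0.51 (adjusted p = 0.0331), the wild type mean being 2.46 ± 0.06. Each of these calls was lost in part of the 17 alternative settings, 12 for Cdc6, 10 for Ccnb2, 9 for Cdkn3, 7 for E2f4, and 9 and 12 for Sesn1 in the comparisons with KTR and wild type cells. All of these involve K314/315R, whose 2 arrays lay on a slide of their own, so that line and slide cannot be told apart.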

How the results depend on the processing

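Over the alternatives the mitotic minus S-phase difference against pTV cells kept its sign. It ranged from 0.136 to 0.226 in wild type, 0.076 to 0.202 in KTR and 0.013 to 0.192 in K314/315R cells. Against wild type cells it ranged from -0.118 to 0.008 in KTR and from -0.181 to -0.002 in K314/315R cells. For KTR over K314/315R it ranged from -0.065 to 0.114, and for 3 h over 0 h from -0.008 to 0.059. No named gene that passed changed direction in the alternatives run. Counts of calls depended on the setting, and the cause was not tested except where a value is given. Sizes of differences moved as well. For wild type over pTV, Ccne2 ranged from -1.14 to -0.37 and Cdc6 from -1.10 to -0.50. For 3 h over 0 h, normexp moved the median difference of the members to -0.17 and that of the S-phase genes to -0.21. Counts below are members, then genes of the further lists.

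With normexp background correction, 0 members passed in any comparison; further genes higher and lower numbered 0 and 0 for wild type over pTV, 1 and 0 for KTR over pTV, 2 and 1 for K314/315R over pTV, 0 and 0 for KTR over K314/315R, 0 higher for K314/315R over wild type, and 0 and 0 for 3 h over 0 h. On that correction 9 spots of wild type replicate 1 and 4 of pTV replicate 2, more than 200 units below their local background, set the fitted background mean to -1476 and -505; without such spots, a choice made after the data were seen, it was 13.5 and 8.76, the members that passed numbered 11, 2, 19 and 2 (wild type, KTR and K314/315R over pTV, and KTR over K314/315R), and 0 further genes were higher in K314/315R than in wild type cells.

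Quantile normalization left 1 member higher in KTR than in K314/315R cells, and 0 further genes higher in K314/315R than in wild type cells. Median centring left 0 in the former. The authors' table gave 11 members and 10 further genes lower in K314/315R than in pTV cells, and for KTR over K314/315R 0 members and 0 further genes higher and 3 lower. Without a filter on dim probes, 3 members were higher in KTR than in wild type cells, 11 members and 5 further genes were lower and 5 further genes higher in K314/315R than in pTV cells, 5 further genes were lower in wild type than in pTV cells, and 0 further genes were higher in K314/315R than in wild type cells. With outlier spots kept, 0 members and 1 further gene were higher in KTR than in K314/315R cells. With only the groups compared in the fit, members lower than in pTV cells numbered 17 in wild type, 0 in KTR and 9 in K314/315R cells; further genes numbered 3 higher and 2 lower in KTR and 7 lower in K314/315R; 0 members and 0 further genes either way passed for KTR over K314/315R, and 0 further genes were higher in K314/315R than in wild type cells. With the mean of all tested probes of a gene, 1 member was higher in KTR than in pTV and 1 member and 1 further gene higher than in K314/315R cells, with 0 further genes lower; for K314/315R over wild type 0 further genes were higher and 1 lower, and for 3 h over 0 h 2 were lower.

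With the replicate block, members and further genes lower numbered 19 and 18 for wild type over pTV, 5 and 9 for KTR over pTV (1 member higher), 32 and 34 for K314/315R over pTV and 1 and 4 for K314/315R over wild type; 1 member was higher in KTR than in wild type cells; 7 members and 9 further genes were higher and 2 lower in KTR than in K314/315R cells; and for 3 h over 0 h 1 member and 3 further genes were lower and 4 higher. Without the K314/315R arrays, the block (added after the data were seen) gave 38 members and 39 further genes lower and 10 higher for wild type over pTV, 11 members and 3 further genes higher for KTR over wild type, 13 members and 16 further genes lower and 1 member higher for KTR over pTV, and, for 3 h over 0 h, 1 member each way with 6 further genes higher and 5 lower. With the slide as a random block (consensus correlation 0.376), 20 members and 23 further genes were lower in wild type and 5 and 9 in KTR than in pTV cells, with 1 member higher; 2 members were higher in KTR than in wild type cells; further genes for K314/315R over pTV were 5 higher and 8 lower and for K314/315R over wild type 0 higher; for KTR over K314/315R 0 members and 0 further genes passed either way; and for 3 h over 0 h 1 member and 4 further genes were lower and 5 higher. The replicate number changed no other call by more than 1.5 times.

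At an unadjusted p below 0.05, members lower numbered 23 (27 further genes), 7 (11) and 28 (27) in wild type, KTR and K314/315R over pTV, with 1 member higher in KTR. For KTR over wild type 9 members and 5 further genes were higher and 3 lower, for K314/315R over wild type 1 member and 4 further genes were lower and 2 higher, for KTR over K314/315R 13 members and 7 further genes were higher and 3 lower, and for 3 h over 0 h 2 members and 7 further genes were higher and 1 and 5 lower.

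Leaving out 1 array at a time, members lower ranged from 5 to 10 for wild type over pTV, 2 to 5 for KTR over pTV and 5 to 25 for K314/315R over pTV, and members higher in KTR than in K314/315R cells from 0 to 3. Further genes lower ranged from 5 to 9, 4 to 8 and 4 to 22 for the comparisons with pTV, and higher from 5 to 8 for K314/315R. They ranged from 0 to 4 higher and 0 to 3 lower for KTR over K314/315R, were 0 throughout as higher in K314/315R than in wild type cells, and ranged from 0 to 1 lower for 3 h over 0 h. Where 1 K314/315R array remained it was assumed to vary like the other groups. Among genes named singly, 136 values no longer passed, 15 newly passed and 729 kept their side of the threshold. Signal over background set no limit for the members, all of which were above it on all arrays.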
